A study of Mus musculus with 12 samples.

Results

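The data describe how mouse mpkCCDc11 cells changed their RNA after 24 h with dDAVP, when the cells had first received a control siRNA. mpkCCDc11 is an immortalised, clonal line from the cortical collecting duct of the mouse kidney, and dDAVP (desmopressin) is an analogue of vasopressin that prefers its V2 receptor. The comparison rests on 6 of the 12 libraries of the series: 3 from cells given 50 nM control siRNA and vehicle, and 3 from cells given 50 nM control siRNA and 1 nM dDAVP on the basolateral side. Both groups are labelled wild type. In both, permeable supports carried the cells for 4 days in medium with 50 nM dexamethasone and other hormones, and were then starved for 24 h of serum and hormones. The other 6 libraries come from the same 2 treatments after 50 nM Ctnnb1 siRNA, against the gene of beta-catenin. All genes of the count table were considered: 25208 were in the table, and 16508 had enough reads to be tested.

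In the collecting duct, vasopressin binds the V2 receptor on the basolateral side of principal cells. The receptor acts through the stimulatory G protein on adenylyl cyclase, and the cyclic AMP (cAMP) so made activates protein kinase A, which phosphorylates transcription factors of the CREB family and the water channel aquaporin-2. Phosphodiesterases end the signal by splitting cAMP. The pathway sets how much water is reabsorbed, by moving aquaporin-2 to the apical membrane within minutes and by raising transcription of its gene over hours to days.

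The 6 libraries held 32997720 to 48935473 counted reads. No 2 of them were near copies of each other: a chi-square test of counts gave 5.96 to 23.5 per degree of freedom between libraries of the same group, where sampling noise alone gives 1. Nothing in the labels says whether the replicates were separate cultures, so p-values measure the spread between libraries, which may be technical. In the main fit that spread was estimated from all 12 libraries, not from these 6 alone. Between the Ctnnb1-siRNA dDAVP libraries, which entered it, the chi-square was 12.3 to 63.8 per degree of freedom. All 15 listed principal cell markers were in the table, and their summed level was 2770 to 2850 TPM, a level per length of transcript, in vehicle and 3180 to 3250 TPM in dDAVP libraries. Most of that sum was the keratins Krt8 and Krt18. The others were uneven. Avpr2 was at 29.8 to 43.3 TPM, Tmem45b at 33.5 to 53.2, the transcription factor gene Gata3 at 29.1 to 45.2, Hsd11b2, which inactivates glucocorticoids, at 18.8 to 29.7 and Scnn1a, a subunit of the epithelial sodium channel, at 10.0 to 15.2 TPM. Scnn1b, another subunit, Kcnj1, the secretory potassium channel, and Elf5, a transcription factor gene, were each at or below 0.37 TPM in every library. Of 13 intercalated cell markers 8 were in the table, Slc4a1 had no read, and the summed level was 83.0 to 89.0 TPM in vehicle and 83.6 to 97.6 TPM in dDAVP libraries. Atp6v1b1, at 54.0 to 65.3 TPM, and Rhcg, at 20.2 to 26.9 TPM, made up most of this sum. Foxi1 and Slc26a4 were among the markers not in the table. In bulk RNA, fewer cells of a type and less RNA per cell cannot be told apart. Small structural RNAs made up 1.59% ± 0.319 (SD, n = 3) of vehicle and 2.08% ± 0.411 (SD, n = 3) of dDAVP reads, and their part in the results was not tested, apart from the calls on the TPM scale given with the counts.

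dDAVP raised more genes than it lowered, and raised them further. At an adjusted p under 0.05 (edgeR quasi-likelihood test, Benjamini-Hochberg adjustment over the 16508 genes), 316 genes were higher, 1.91% of those tested, and 151 were lower, 0.915% of those tested. The counts of called list members given below are to be read against these shares. Among the raised genes 75 changed at least 2-fold (0.454% of tested genes) and 20 more than 4-fold, against 5 lowered genes (0.0303%) at least 2-fold and 2 more than 4-fold. The median log2 fold change was 0.52 over the raised and -0.35 over the lowered genes, and 0 over all tested genes. The raised genes took 1.70% ± 0.0231 (SD, n = 3) of reads in vehicle and 2.26% ± 0.0361 in dDAVP libraries, and the lowered genes went from 1.39% ± 0.0153 to 1.10% ± 0.0153. In none of the 467 called genes (2.83% of those tested) did the 3 dDAVP values overlap the 3 vehicle values, which was so for 22.2% of all tested genes. Lack of overlap in a called gene below is therefore a description and no separate support.

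The counts depended on the libraries and on the scale. In 21 alternatives, 9 of them other settings and 12 with 1 library left out, 118 raised (0.715%) and 42 lowered genes (0.254%) were called each time they were tested. Such genes are called steady here. An alternative that gave a gene no adjusted p, such as a stricter filter on low counts, did not count against it. Without control-siRNA vehicle library 2 the counts were 180 higher and 61 lower, without vehicle library 3 they were 179 and 61, without dDAVP library 1 they were 197 and 68, without dDAVP library 3 they were 209 and 60, and without library 3 of the Ctnnb1-siRNA dDAVP group, which shares the estimate of spread, they were 513 and 330. On the log2(TPM + 1) scale the calls were 166 higher and 257 lower, so that 39.2% rather than 67.7% were higher; with the small structural RNAs taken out of the TPM they were 249 and 148, or 62.7% higher.

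**Figure D1:**
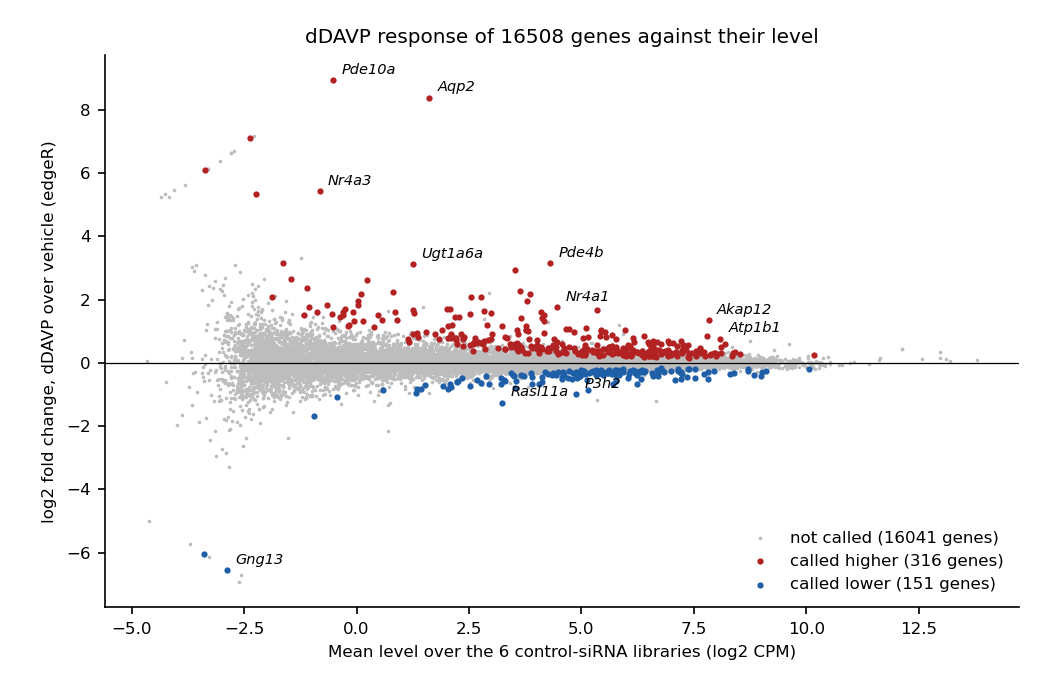
Each point is 1 tested gene, with its mean level over the 6 control-siRNA libraries (log2 CPM, read counts scaled to library size) on the x axis and its log2 fold change after dDAVP on the y axis; genes without a read in these libraries are not drawn. The 316 genes called higher (red) reach far above the 151 called lower (blue), and Pde10a and Aqp2 lie highest among the called genes.

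Aqp2, the gene of the vasopressin-regulated water channel (GRCm38 chr15:99579056-99584545), was almost silent without the agonist. It had 2, 0 and 0 reads in vehicle libraries 1 to 3 and 302, 189 and 279 reads in dDAVP libraries 1 to 3. All 3 dDAVP libraries were far above all 3 vehicle libraries. Over each group this is a ratio of 392, with a 95% counting interval of 108 to 3240 that covers counting error only, and a fitted log2 fold change of 8.38 (SE 0.516, adjusted p = 2.2e-07). The fitted value depends on how the near-zero vehicle group is treated and lay between 3.21, on the log2(TPM + 1) scale, and 11.03, without vehicle library 1. By an exact two-sided permutation test on CPM the p was 0.1, the smallest that 3 against 3 libraries can give. After dDAVP the level was still modest per length: 8.63 TPM on average.

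Of the 5 aquaporin genes tested, 4 were called higher, and 2 of these, Aqp2 and Aqp5, were steady. Aqp5, a channel best known from glands and lung, stood at 4.94, 4.26 and 3.43 CPM in vehicle and 20.4, 21.1 and 19.8 CPM in dDAVP libraries, a 4.85-fold rise (log2 2.28, SE 0.131, adjusted p = 1.13e-07). Its 3 dDAVP values lay close together and well above vehicle. At 26.2 TPM after dDAVP, Aqp5 was the aquaporin with the highest level per length among those tested, above Aqp2. Aqp6, an intercalated cell channel of intracellular vesicles, went from 1.39, 1.28 and 0.998 to 4.91, 2.78 and 3.14 CPM (2.95-fold, adjusted p = 0.0024), a call not made on the log2(TPM + 1) scale (adjusted p = 0.0536). Aqp3, the basolateral water exit channel of principal cells, went from a mean of 0.613 to 1.37 TPM (adjusted p = 0.0445) and lost its call in 9 alternatives, with adjusted p up to 0.171 without vehicle library 3. Its call was also lost with a replicate block (adjusted p = 0.0632). Aqp11 did not pass the test, and Aqp4, with 9 reads in vehicle and 23 in dDAVP libraries, was too low to be tested.

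Aqp2, Aqp5 and Aqp6 are neighbours. Aqp5 starts 6483 bases after the end of Aqp2, and Aqp6 3639 bases after the end of Aqp5, all on chromosome 15. The predicted gene Gm34765, which overlaps the 3 aquaporins, had 1 read in vehicle and 54 in dDAVP libraries, a ratio of 55.0 with a counting interval of 9.46 to 2210. Whether reads were counted by strand is not stated, so its reads and those of the aquaporins cannot be told apart with certainty.

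At the start of the pathway 1 gene was called. Of 11 tested genes of the receptor, the stimulatory G protein and the adenylyl cyclases, Avpr2 alone was called. Avpr2, the V2 receptor itself (GRCm38 chrX:73891765-73894428), stood at 34.3, 27.3 and 26.7 CPM in vehicle and 38.9, 42.6 and 39.4 CPM in dDAVP libraries, a 1.37-fold rise (log2 0.45, SE 0.0863, adjusted p = 0.00795). The vehicle values were spread, and the highest of them lay just under the lowest dDAVP value. The call was lost without vehicle library 2 (adjusted p = 0.0545) and without vehicle library 3 (adjusted p = 0.0583). Gnas, the alpha subunit of the stimulatory G protein, had a log2 difference of -0.06 (SE 0.0436), and Adcy6, at 74.0 TPM the adenylyl cyclase with the highest level here, one of 0.16 (SE 0.0613), and neither passed the test. Of 10 other tested receptors that act on cAMP, Adora1 was called. This gene of the adenosine A1 receptor, which couples to inhibitory G proteins, rose from 62.6, 59.4 and 59.8 to 118, 98.3 and 109 CPM (1.79-fold, adjusted p = 2.8e-06), and the call was steady.

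Of 11 tested phosphodiesterases, which split cAMP, cGMP or both or are named for that family, 4 were higher and 1 was lower, and 3 of the calls were steady. Pde4b, which splits cAMP, stood at 2.69, 5.67 and 3.86 CPM in vehicle and 36.2, 35.6 and 35.1 CPM in dDAVP libraries, 8.94-fold higher (log2 3.16, SE 0.17, adjusted p = 1.79e-07). The dDAVP libraries were nearly alike and far above any vehicle value. Pde4d, its close relative, rose from 5.08, 6.08 and 5.94 to 26.3, 17.5 and 21.6 CPM (3.83-fold, adjusted p = 9.01e-06). Pde10a, which splits cAMP and cGMP, had no read in the 3 vehicle libraries and 72, 31 and 75 reads in the dDAVP libraries, at least 60.4-fold higher when vehicle is set at the 3 reads over the group that a count of 0 allows. These were the 3 steady calls.

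Pde4a rose from a mean of 0.977 to 1.84 TPM (adjusted p = 0.0406) and lost its call in 10 alternatives, with adjusted p up to 0.173 without vehicle library 1 and of 0.066 with a replicate block. Pde4c was lower, at 43.4, 44.5 and 46.2 CPM in vehicle and 33.0, 34.8 and 40.0 CPM in dDAVP libraries (adjusted p = 0.0405), and lost its call in 9 alternatives, with adjusted p up to 0.188 without vehicle library 3 or dDAVP library 1 and of 0.0647 with a replicate block. In vehicle Pde4c was at 28.1 TPM against 1.99 TPM for Pde4b and 1.03 TPM for Pde4d, and after dDAVP the levels were 21.8, 16.9 and 3.98 TPM. Pde7a, with 89.1 TPM in vehicle the member at the highest level, differed by -0.08 on the log2 scale (SE 0.0475) and was not called.

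Of 12 tested genes that end signalling at the receptor, Rgs2 was higher and Arrb1 lower. Rgs2, a regulator of G protein signalling, rose from 2.04, 1.46 and 2.08 to 6.21, 5.64 and 6.59 CPM (3.27-fold, adjusted p = 7.22e-06), with every dDAVP value above every vehicle value, and was steady. Arrb1, a beta-arrestin, fell from a mean of 7.19 to 5.38 TPM (adjusted p = 0.01), a call lost on the log2(TPM + 1) scale (0.0764), without vehicle library 3 (0.0725) and without dDAVP library 3 (0.0784). The kinases Grk2, Grk4, Grk5 and Grk6, which phosphorylate active receptors, were not called.

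In the kinase itself, a regulatory subunit rose and an inhibitor fell. Of 9 tested genes of protein kinase A, Prkar2b, a type II regulatory subunit, went from 131, 118 and 122 to 181, 181 and 184 CPM (1.47-fold, log2 0.56, SE 0.068, adjusted p = 0.00016). Pkia, a peptide inhibitor of the catalytic subunit, went from 27.7, 31.2 and 32.3 to 21.1, 24.3 and 20.6 CPM (1.38-fold lower, adjusted p = 0.00512). Both calls were steady, and neither gene's groups overlapped. The catalytic subunit genes Prkaca and Prkacb differed by 0.03 (SE 0.0611) and -0.03 (SE 0.0559) on the log2 scale and were not called. Of 16 tested anchoring proteins, which hold the kinase at membranes and cytoskeleton, Akap12 was called: it rose from 131, 131 and 125 to 356, 319 and 306 CPM (2.53-fold, adjusted p = 0.000417), steady, and was the gene with the largest gain in CPM among the steady raised genes considered for naming. Of 7 tested genes of other cAMP effectors, Rap1gap, an inhibitor of the Rap GTPases, was lower (log2 -0.37, adjusted p = 0.0469), a call lost in 13 alternatives, among them the replicate block (0.0556) and the removal of each of the 6 control-siRNA libraries.

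**Figure D2:**
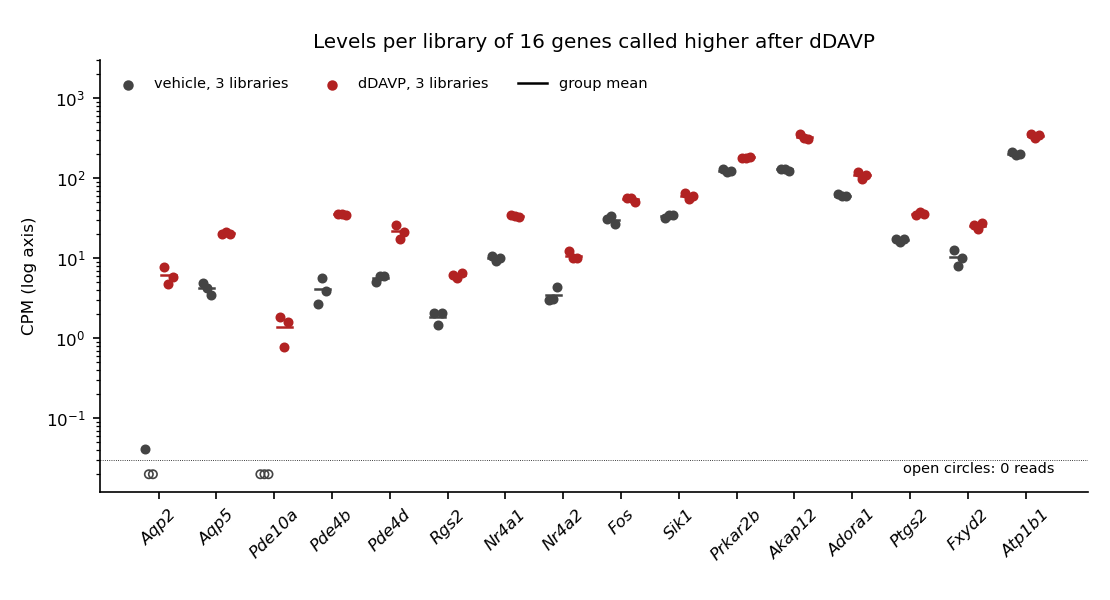
Levels of 16 raised genes in CPM on a log axis, with 1 point per library (vehicle grey, dDAVP red), a line at the group mean where all 3 values are above 0, and open circles for libraries without a read. In each gene the 3 dDAVP points lie above the 3 vehicle points, by the widest margin in Aqp2, Pde10a and Pde4b.

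CREB and its relatives switch on genes with a cAMP response element. The gene lists, CREB targets included, were chosen with earlier results of these data known, so their counts and medians are descriptive. Of 35 tested CREB target genes 13 were called higher and 0 lower, 29 had a positive difference, and the median log2 fold change was 0.35 against 0 over all tested genes; 10 of the 13 calls were steady, among them Pde4b, Pde4d and Rgs2 described before, and over the alternatives 11 to 15 were called higher and 0 to 2 lower. Of 14 factors, coactivators and kinases around CREB, 2 were called higher, both steady, and 0 lower; both, Crem and Sik1, are also on the target list. Crem, which also encodes the cAMP-inducible repressor ICER, rose from 5.36, 5.37 and 5.64 to 8.86, 8.50 and 8.97 CPM (1.61-fold, adjusted p = 0.00101). Sik1, a kinase that holds CREB coactivators in the cytoplasm, rose from 32.1, 34.4 and 34.6 to 65.4, 54.8 and 59.1 CPM (1.77-fold, adjusted p = 6.15e-06). In both genes the groups were well apart. Creb1 differed by -0.04 on the log2 scale (SE 0.0496) and was not called, nor were the coactivators Crtc1, Crtc2, Crtc3, Crebbp and Ep300.

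The orphan nuclear receptors of the NR4A family, which act without a known ligand and are early targets of cAMP, all rose. Nr4a1 stood at 10.7, 9.33 and 9.96 CPM in vehicle and 35.1, 33.7 and 33.2 CPM in dDAVP libraries, a 3.39-fold rise (log2 1.76, SE 0.0721) and the smallest adjusted p of the genes named here, 2.35e-09. Its libraries were nearly alike within each group. Nr4a2 rose from 2.98, 3.13 and 4.32 to 12.2, 10.2 and 9.96 CPM (3.09-fold, adjusted p = 8.93e-06), also steady. Nr4a3 had 0, 0 and 3 reads in vehicle and 71, 11 and 59 in dDAVP libraries, a ratio of 47.9 with a counting interval of 16 to 235 (adjusted p = 0.0101), and lost its call on the log2(TPM + 1) scale (0.109), without vehicle library 1 (0.0548) and without vehicle library 2 (0.057).

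Other CREB targets differed in how far they moved. Fos, a partner in the AP-1 factor, rose from 31.1, 33.4 and 26.6 to 56.1, 57.3 and 50.1 CPM (1.80-fold, adjusted p = 3.4e-05), and Cebpd, a C/EBP factor, from 3.14, 3.07 and 1.84 to 6.06, 5.87 and 6.34 CPM (2.28-fold, adjusted p = 0.000875). Avpi1, named for its induction by vasopressin, rose from 31.4, 26.9 and 28.5 to 56.0, 59.6 and 57.0 CPM (log2 0.99, SE 0.0882, adjusted p = 7.9e-06); it was singled out after its values were seen. These 3 calls were steady. Ier3 and Irs2 were called too, but Ier3 lost its call without any 1 of the 6 control-siRNA libraries (adjusted p up to 0.118) and Irs2 on the log2(TPM + 1) scale (0.108). Junb, Egr1, Arc, Dusp1 and Per2 had log2 differences of 0.09, 0.16, 0.02, 0.28 and 0.18 and were not called, and Egr3 had one of 0.97 (SE 0.262, adjusted p = 0.0627). Jun, the partner of Fos in AP-1, was lower, from 107, 129 and 111 to 93.4, 97.2 and 89.0 CPM (adjusted p = 0.0189), a call lost without vehicle library 2 (0.13) or 3 (0.0546) or dDAVP library 1 (0.0693) or 3 (0.125).

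Promoter sequence was read from RefSeq (GRCm38.p6), 250 bases before to 50 bases after each annotated start; 11680 tested genes matched with 14844 windows. The full cAMP response element TGACGTCA, the palindrome that CREB dimers bind, was in 2.84% of all windows, in 5 of 310 windows (1.61%) of the genes called higher and in 1 of 129 (0.775%) of those called lower. The core TGACG, read on both strands and contained in the full element, was in 29.2%, 26.1% and 24.0% of windows. The NR4A element AAAGGTCA was in 0.957%, 1.61% and 0.0%, the AP-1 element TGANTCA in 5.6%, 11.3% and 7.75%. A match is a description of letters and says nothing about binding. The stretches below end at the last base before the annotated start. They show where the core lies in Aqp2, Nr4a1 and Fos, known to answer cAMP, whose stretches hold no full element. They also show where the full element lies in Arl4d and Errfi1, raised genes that have it. Errfi1 is a feedback inhibitor of the EGF receptor. Capitals mark TGACG or its reverse complement CGTCA; all lie on the plus strand, and Arl4d, Nr4a1 and Fos were picked after their values were seen.
Aqp2, chr15:99578806-99579055: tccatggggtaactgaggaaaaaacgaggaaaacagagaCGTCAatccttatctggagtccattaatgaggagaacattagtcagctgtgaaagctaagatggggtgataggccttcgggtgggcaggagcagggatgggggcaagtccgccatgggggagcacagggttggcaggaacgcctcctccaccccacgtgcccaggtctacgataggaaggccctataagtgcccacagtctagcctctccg
Nr4a1, chr15:101266696-101266845: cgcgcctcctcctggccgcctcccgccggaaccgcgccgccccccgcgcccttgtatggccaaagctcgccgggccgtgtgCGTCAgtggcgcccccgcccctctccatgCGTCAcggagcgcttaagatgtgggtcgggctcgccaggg
Fos, chr12:85473740-85473889: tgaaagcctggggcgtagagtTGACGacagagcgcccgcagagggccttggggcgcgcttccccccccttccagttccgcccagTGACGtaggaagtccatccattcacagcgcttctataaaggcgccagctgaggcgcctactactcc
Arl4d, chr11:101665391-101665540: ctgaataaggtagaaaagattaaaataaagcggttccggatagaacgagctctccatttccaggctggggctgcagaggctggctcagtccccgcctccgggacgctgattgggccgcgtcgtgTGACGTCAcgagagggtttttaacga
Errfi1, chr4:150854920-150855069: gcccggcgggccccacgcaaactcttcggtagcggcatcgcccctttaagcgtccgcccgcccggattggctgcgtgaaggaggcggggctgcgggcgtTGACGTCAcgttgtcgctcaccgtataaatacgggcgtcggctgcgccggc
The core began 211 bases before the start in Aqp2, the only one in its window, 69 and 40 bases before it in the shown stretch of Nr4a1, and 129 and 66 bases before it in Fos. The full element began 26 bases before the start of Arl4d and 51 bases before that of Errfi1, whose window is 1 of 2 annotated. Arl4d, a small GTPase, rose from 9.46, 9.15 and 9.76 to 26.5, 23.9 and 26.0 CPM (log2 1.43, SE 0.0939), a steady call. Errfi1 was at the edge of the test (log2 0.20, adjusted p = 0.0471) and lost its call in 14 alternatives, the replicate block (0.0729) and the removal of each control-siRNA library among them.

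Of 23 tested genes of sodium reabsorption 4 were called higher and 0 lower, with a median log2 fold change of 0.14, and 3 of the calls were steady. Atp1b1, the beta subunit of the sodium pump, rose from 210, 193 and 202 to 361, 321 and 343 CPM (1.69-fold, log2 0.76, SE 0.0654, adjusted p = 6.15e-06). Fxyd2, the gamma subunit that tunes the pump, rose from 12.7, 8.02 and 9.98 to 25.9, 23.4 and 27.5 CPM (2.48-fold, adjusted p = 9.01e-06). In both, the lowest dDAVP value was well above the highest vehicle value. Fxyd6, of the same family and 3550 bases from Fxyd2, rose as well, from 0.306, 0.417 and 0.673 to 1.53, 1.09 and 1.68 CPM (log2 1.62, SE 0.301), steady but chosen after its values were seen. Tmprss4, a membrane serine protease, rose 2.26-fold from 3.12, 2.09 and 2.32 to 5.91, 5.71 and 5.52 CPM (adjusted p = 0.00241). Nedd4l, a ubiquitin ligase that removes the sodium channel from the membrane, was called (log2 0.40, adjusted p = 0.0195) but lost its call in 6 alternatives: on the log2(TPM + 1) scale (0.156) and without vehicle library 1, 2 or 3 or dDAVP library 1 or 3 (0.0518 to 0.102). Nedd4l was also the single call among 40 tested genes of Aqp2 vesicle trafficking (2.5% higher, against 1.91% of all tested genes), whose median log2 fold change was 0.03.

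Transport of other solutes changed at single genes. Of 223 tested solute carriers 12 were higher (5.38%, against 1.91% of all tested genes) and 1 was lower (0.448%, against 0.915%). Slc28a3, a concentrative nucleoside transporter, rose from 0.286, 0.596 and 0.499 to 1.60, 1.47 and 1.71 CPM (3.52-fold, adjusted p = 0.00337). Slc39a14, a zinc and iron importer, rose from 124, 122 and 124 to 186, 169 and 190 CPM (1.47-fold, adjusted p = 8.93e-06), and the intestinal-type zinc importer Slc39a4, picked after its values were seen, from 19.1, 20.6 and 19.3 to 67.5, 63.7 and 55.3 CPM (log2 1.66, SE 0.12). The metal-binding metallothionein Mt2 rose from 31.1, 32.5 and 29.6 to 67.4, 58.3 and 56.2 CPM (1.95-fold, adjusted p = 9.59e-05). All 4 calls were steady, with no overlap of the groups. Nipal1, a magnesium transporter, rose 4.54-fold from 6.30, 5.04 and 4.30 to 23.3, 24.4 and 23.5 CPM. Of 20 tested V-ATPase subunits, which make the proton pump, Atp6v0a4 was called, 2.02-fold higher (11.2, 7.63 and 9.16 against 18.9, 16.9 and 20.9 CPM, adjusted p = 0.000138). Of 18 tested potassium and chloride channels 3 were called higher and 0 lower, none of them steady. Slc5a3, which imports the osmolyte myo-inositol, rose from 94.5, 97.7 and 101 to 166, 135 and 151 CPM (adjusted p = 0.00261), a call not made on the log2(TPM + 1) scale (0.066).

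The basement membrane is the sheet of matrix under the epithelium. Of 24 tested genes of it 8 were called lower and 0 higher, all 8 steady, with a median log2 fold change of -0.16 over the list; over the alternatives 8 to 12 were lower and 0 higher. Among them were Col4a1, Col4a2, Col4a3, Col4a4 and Col4a5, which encode 5 of the 6 chains of type IV collagen, the laminin subunit Lamb1, and Fras1, a matrix protein at the epithelial base. Col4a3 stood at 88.3, 94.7 and 96.3 CPM in vehicle and 61.7, 58.0 and 56.4 CPM in dDAVP libraries, 1.59-fold lower (log2 -0.67, SE 0.0599, adjusted p = 8.47e-06). Col4a4 fell from 160, 158 and 162 to 118, 97 and 114 CPM (1.46-fold lower), and Col4a5 from 280, 255 and 263 to 189, 188 and 179 CPM (1.44-fold lower). Every dDAVP library was below every vehicle library in these genes. Col4a1 fell from 190, 186 and 189 to 136, 140 and 135 CPM (1.38-fold lower, adjusted p = 0.00493), and Col4a2, singled out after its values were seen, had a log2 fold change of -0.51 (SE 0.0951). The pairs Col4a3 with Col4a4 and Col4a1 with Col4a2 lie head to head and their annotations overlap by 113 and 84 bases, so reads there cannot be assigned with certainty.

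P3h2, a prolyl hydroxylase that modifies type IV collagen, fell from 40.6, 38.9 and 38.2 to 22.5, 17.9 and 18.8 CPM (1.99-fold lower, log2 -0.99, SE 0.0854, adjusted p = 6.15e-06), the single call among 15 tested collagen-modifying enzymes, of which 14 had a negative difference. Fras1 fell from 602, 572 and 584 to 468, 388 and 455 CPM (1.34-fold lower), and Lamb1 from 579, 558 and 571 to 471, 458 and 476 CPM (1.22-fold lower). In none of these genes did the treatments overlap. Of 13 tested integrins Itgb6, a partner in an integrin that releases active TGF-beta, was lower and steady, from 213, 216 and 216 to 151, 162 and 152 CPM (1.38-fold lower, adjusted p = 9.01e-06). Of the other integrins 1 was called higher and 1 lower, neither of them steady. The actin-severing proteins Scin and Gsn fell 1.3-fold (550, 504 and 506 against 392, 412 and 396 CPM) and 1.42-fold (181, 169 and 172 against 112, 130 and 126 CPM), both steady.

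**Figure D3:**
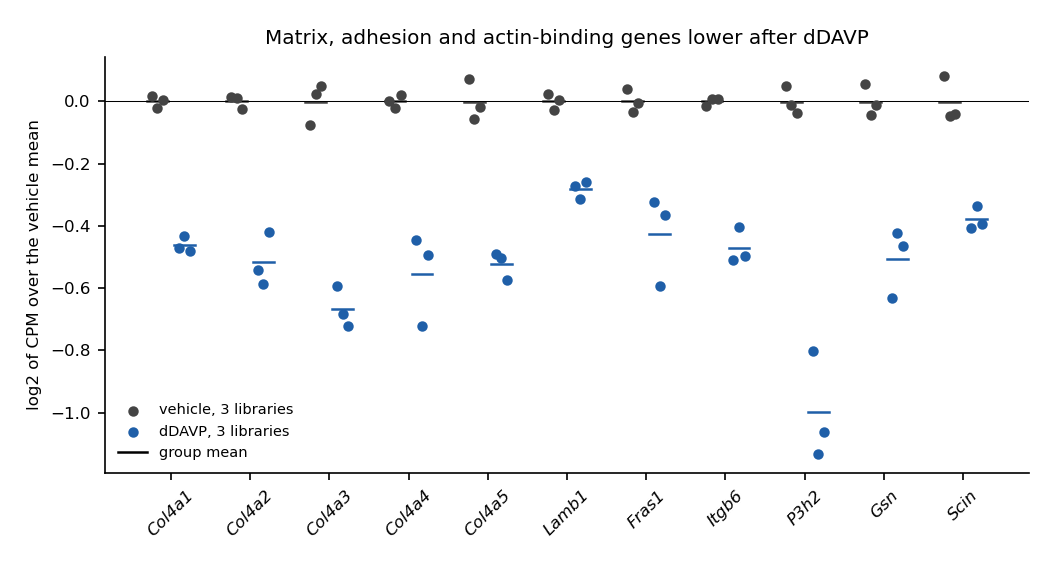
Each point is the CPM of 1 library relative to the vehicle mean of that gene, on a log2 scale, for 11 matrix, adhesion and actin-binding genes, with lines at the group means (vehicle grey, dDAVP blue). All dDAVP points lie below all vehicle points of the same gene, with P3h2 lowest.

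Further lowered genes were of mixed kinds. Rasl11a, a small GTPase, fell furthest among the named lowered genes that had at least 1 CPM in vehicle, from 14.6, 11.9 and 13.3 to 4.96, 6.70 and 5.10 CPM (2.39-fold lower, log2 -1.26, SE 0.144, adjusted p = 9.17e-05). St6gal1, which adds sialic acid to glycans, fell from 45.3, 44.4 and 47.2 to 23.2, 27.1 and 25.1 CPM (1.82-fold lower, adjusted p = 2.31e-06). Nrp1, the co-receptor neuropilin, fell from 72.3, 63.8 and 60.4 to 45.8, 43.3 and 44.2 CPM (1.48-fold lower). Vnn1, a pantetheinase, fell 1.61-fold, the membrane peptidase gene Mme 1.49-fold and the formin gene Fhod3 1.75-fold. Nrep, Nrip3, Fam81a and Angptl2 fell 1.59-fold, 1.59-fold, 1.5-fold and 1.53-fold. All of these calls were steady and none of the groups overlapped. Genes named by fold or CPM difference had to meet both conditions. Gng13, a G protein gamma subunit, had 12, 11 and 11 reads in vehicle and 0 in every dDAVP library, at least 11.1-fold lower against the 3 reads over the group that a count of 0 allows.

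Of 25 tested NF-kappaB and chemokine genes 4 were higher and 0 lower, all 4 steady, with a median log2 fold change of 0.14. Cxcl5, a neutrophil chemokine, rose from 9.81, 9.18 and 8.79 to 28.6, 31.3 and 20.3 CPM (2.88-fold, adjusted p = 2.65e-05), and Nfkbiz, a nuclear regulator of NF-kappaB, from 71.5, 71.1 and 74.0 to 112, 107 and 112 CPM (1.53-fold, adjusted p = 9.43e-06). C3, the central complement component, rose from 170, 157 and 151 to 311, 258 and 290 CPM (1.79-fold, adjusted p = 0.000468), and Cfb, complement factor B, from 2.49, 3.28 and 2.00 to 7.77, 7.36 and 6.06 CPM (2.75-fold, adjusted p = 0.000166). In none of the 4 did a dDAVP value reach down to the vehicle range. Of 12 tested complement and acute phase genes 4 were higher and 1 was lower; the lipopolysaccharide-binding protein gene Lbp rose 1.40-fold and was steady. Of 9 leukocyte markers 4 were in the table, and their summed level was 16.3 to 19.0 TPM in vehicle and 16 to 18 TPM in dDAVP libraries. They went in different directions: Csf1r, which made up most of the sum, was at 12.4, 14.4 and 13.6 TPM in vehicle and 12.8, 10.2 and 11.1 TPM in dDAVP libraries, and Cd68 at 3.85, 4.54 and 5.01 against 5.07, 5.78 and 5.28 TPM. Ptprc, the pan-leukocyte marker, was at or below 0.07 TPM, with 4 reads in vehicle and 23 in dDAVP libraries, and Itgam had 4 and 0 reads. The part of such cells in these results was not tested. Of 29 tested interferon-response genes Oasl1 alone was called, as higher (3.45%, against 1.91% of all tested genes).

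Prostaglandin genes changed in both directions. Ptgs2, the inducible cyclooxygenase, rose from 17.4, 16.2 and 17.6 to 34.5, 37.4 and 35.8 CPM (2.10-fold, log2 1.07, SE 0.107, adjusted p = 1.85e-05), and Slco2a1, which takes prostaglandins up into cells, from 2.16, 2.12 and 1.69 to 7.89, 5.69 and 5.66 CPM (3.22-fold, adjusted p = 0.000137). Both were steady. Ptgds, a prostaglandin D synthase, fell from 3.59, 2.77 and 4.08 to 1.96, 2.20 and 1.73 CPM (adjusted p = 0.0101), a call lost without dDAVP library 3 (0.0734) and without vehicle library 3 (0.0796). These were the 3 calls among 9 tested genes of the list.

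Egfr, the EGF receptor, rose from 133, 134 and 133 to 215, 181 and 196 CPM (1.48-fold, adjusted p = 0.000115), steady; of 16 tested EGF receptors and ligands 3 (18.8%, against 1.91% of all tested genes) were higher and 0 lower. Dusp10, a phosphatase of stress-activated kinases, rose 1.75-fold from 3.47, 3.76 and 4.25 to 6.98, 6.60 and 6.55 CPM and was the steady raised gene among 25 tested MAPK feedback genes, where 3 (12%) were higher and 1 was lower. Of 23 tested Wnt pathway genes and targets 2 (8.7%) were higher and 0 lower: Fzd4, a frizzled receptor, rose 1.71-fold and was steady, and Myc was called (log2 0.45) but not on the log2(TPM + 1) scale (0.0559). Ctnnb1, the target of the other siRNA, stood at 766, 744 and 761 CPM in vehicle and 776, 811 and 786 CPM in dDAVP libraries and was not called (log2 0.06, SE 0.0464, adjusted p = 0.601). No call was steady among 10 tested FGF genes (0 higher, 2 lower), 13 of insulin and IGF signalling (1 higher, 0 lower), 21 of TGF-beta and BMP signalling (1 higher, 0 lower) and 16 YAP targets (0 higher, 1 lower).

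Part of the genes of xenobiotic and antioxidant metabolism were called, all of them higher. Of 10 tested genes of glucuronidation and xenobiotic response 7 were higher and 0 lower, 4 of them steady, with a median log2 fold change of 0.70; over the alternatives 5 to 8 were called. Ugt1a6a, a UDP-glucuronosyltransferase, rose from 0.530, 0.835 and 0.174 to 4.33, 3.82 and 4.70 CPM (8.67-fold, log2 3.12, SE 0.35, adjusted p = 0.000111), although it shares exons with Ugt1a6b and other Ugt1a genes, so that its reads are uncertain. Ugt1a6b is also among the 7 called genes, so these calls may not be separate. Abcc3, an efflux pump for conjugates, rose 1.75-fold and Gsta4, a glutathione transferase that is also on the next list, 1.51-fold. Of 23 tested NRF2 targets and glutathione genes 10 were higher and 0 lower, 5 of them steady, with a median log2 fold change of 0.27; over the alternatives 6 to 15 were called. Srxn1, which repairs peroxiredoxins, rose from 25.3, 25.4 and 26.8 to 45.5, 43.5 and 46.6 CPM (1.75-fold, adjusted p = 9.81e-07), Gclc, the first enzyme of glutathione synthesis, from 54.7, 55.8 and 54.8 to 78.3, 83.8 and 77.7 CPM (1.45-fold, adjusted p = 9.01e-06), and Nqo1, a quinone reductase on both lists, from 123, 108 and 115 to 159, 173 and 163 CPM (1.43-fold, adjusted p = 0.000533). The libraries of each group lay close together in these 3 genes. Txnrd1 rose 1.27-fold but was not called on the log2(TPM + 1) scale (0.0622).

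Lipid and amino acid metabolism changed at single genes. Of 25 tested genes of fatty acid synthesis and desaturation 4 were higher and 0 lower, and the elongase gene Elovl6 (144, 136 and 135 against 182, 173 and 190 CPM, 1.31-fold) and Dgat2, which makes triglycerides (9.40, 9.87 and 10.1 against 13.9, 14.3 and 15.5 CPM, 1.49-fold), were steady. Arg2, the mitochondrial arginase, rose from 2.67, 3.25 and 1.95 to 12.1, 10.9 and 9.92 CPM (4.21-fold, log2 2.07, SE 0.205, adjusted p = 2.2e-05). Of 23 tested genes of the unfolded protein and amino acid response 5 were higher and 0 lower, and Psat1, an enzyme of serine synthesis, was the steady one (1.25-fold). Of 28 tested glycolysis and hypoxia genes 3 were higher, none of them steady. None of the 24 sterol synthesis genes, 28 nuclear genes of oxidative phosphorylation, 17 clock genes or 30 S phase genes tested was called in edgeR, with medians of 0, -0.02, -0.06 and -0.03. Of 33 tested G2 and M phase genes 0 were called in edgeR and up to 6 were lower in an alternative; 32 of the 33 had a negative log2 difference, with a median of -0.12, against 8463 of all 16508 genes.

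**Figure D4:**
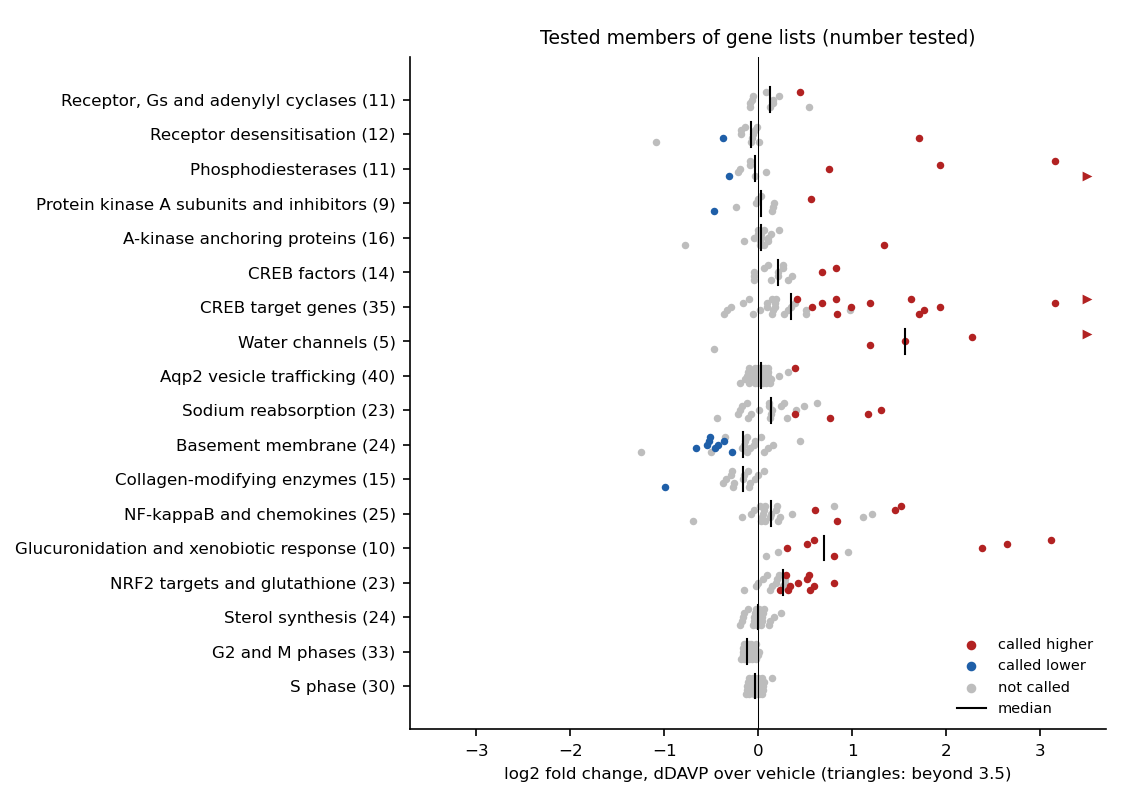
Log2 fold change after dDAVP of each tested gene of 18 lists, with 1 point per gene (red called higher, blue called lower, grey not called), a black line at the median of the list and the number tested in brackets. CREB targets, water channels and xenobiotic genes reach to the right, the called basement membrane genes all lie to the left, and sterol, S phase and G2 and M phase genes hold no coloured point.

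Several of the most raised genes belonged to none of these lists. Baiap2l2, which bends membranes into protrusions, rose from 2.28, 3.22 and 2.52 to 22.7, 17.5 and 20.9 CPM (7.69-fold, log2 2.94, SE 0.131, adjusted p = 4.08e-09). Chil1, a secreted chitinase-like lectin, rose from 0.326, 0.537 and 0.152 to 1.96, 2.53 and 1.54 CPM (6.12-fold, adjusted p = 0.000393) and lies 9184 bases from Adora1. Sprr2g, a small proline-rich protein of squamous epithelia, rose from 0.714, 0.775 and 0.347 to 3.21, 2.81 and 2.61 CPM (4.74-fold, adjusted p = 0.00043). All groups were apart and all 3 calls steady, which naming by fold required. B3gnt7, an N-acetylglucosaminyltransferase and the single raised gene among 26 tested sialyl- and N-acetylglucosaminyltransferases, rose 4.24-fold from 2.45, 2.18 and 2.04 to 10.3, 10.4 and 7.69 CPM (adjusted p = 9.01e-06). By gain in CPM, Prom1, a protein of membrane protrusions, rose from 126, 107 and 107 to 184, 192 and 175 CPM (1.62-fold). Synpo, an actin-binding protein on the podocyte marker list, rose 2.08-fold (13.2, 19.0 and 16.8 against 38.9, 28.2 and 34.4 CPM) and was steady, while Podxl, the other tested member, was called lower and lost its call in 6 alternatives, with adjusted p up to 0.115 without dDAVP library 3.

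The same treatment was given in the 6 libraries of cells with Ctnnb1 siRNA. The comparison above was between control-siRNA libraries, but these 6 shared its filter, its scaling and its estimate of spread. They also entered most of the fits that define steady genes, so the 2 responses are not fully independent. Of the 316 raised genes 311 had a positive log2 fold change there, or 98.4% against 48.5% of all tested genes, and 226 were called higher and 0 lower, where 2.08% of all tested genes were called higher. Of the 151 lowered genes 144 had a negative one, and 57 were called lower and 0 higher, where 0.697% of all tested genes were called lower. All 118 steady raised genes were positive there with 110 called, and all 42 steady lowered genes were negative with 30 called. The median log2 fold change of the raised genes was 0.52 with control and 0.46 with Ctnnb1 siRNA, and that of the lowered genes -0.35 and -0.23; since the genes were picked in the control-siRNA libraries, the larger values there are partly fixed by the choice.

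**Figure D5:**
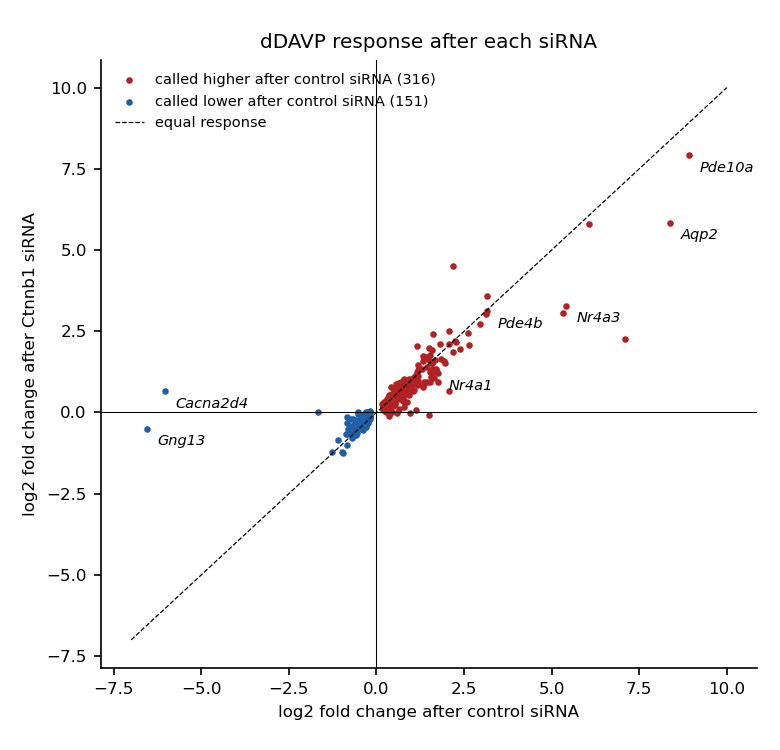
Log2 fold change after dDAVP with control siRNA (x axis) against that with Ctnnb1 siRNA (y axis) for the 316 genes called higher (red) and the 151 called lower (blue) with control siRNA, with a dashed line of equal response. Nearly all points lie in the upper right or lower left part of the plot, and Gng13 and Cacna2d4 lie far from the line.

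The difference between the 2 responses was tested directly as an interaction. No gene passed at an adjusted p under 0.05 in edgeR (0 of 16508, or 0% of tested genes). In the same test 829 genes had an unadjusted p under 0.05, about as many as that threshold passes when no gene differs. DESeq2 called 1 gene, Nr4a1. In Nr4a1 the log2 response was 1.76 with control and 1.21 with Ctnnb1 siRNA, a difference of 0.55 (SE 0.0997, edgeR adjusted p = 0.865). Its level was 10.7, 9.33 and 9.96 CPM in control-siRNA vehicle, 14.4, 13.1 and 13.6 CPM in Ctnnb1-siRNA vehicle and 30.4, 31.6 and 32.9 CPM in Ctnnb1-siRNA dDAVP libraries. The vehicle levels differed more between the siRNAs than the dDAVP levels did. Others among those with the smallest p were Rnu5g, with the larger response in control-siRNA cells, and Gng13, Cacna2d4 and 1110038B12Rik, with the smaller or more negative one, all at an adjusted p of 0.918 and not called. Aqp2 had a log2 response of 8.38 with control and 5.85 with Ctnnb1 siRNA, where it had 8 reads in vehicle and 513 in dDAVP libraries; the difference of 2.53 (SE 1.16, adjusted p = 0.918) was not called.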

How the data were processed

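RNA was made into 12 libraries with a strand-specific kit that removes ribosomal RNA, per the labels. The submitters' processing notes name FastQC, Trimmomatic, HISAT2, StringTie and DESeq2 and the build GRCm38 (mm10), without versions or order, and how strand was used in counting is not given in the sources used here. Per the file headers, the authors deposited 1 column of raw read counts and 1 of TPM per library; the counts are whole numbers with a different sum in each library.

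Counts were analysed with edgeR 4.0.16 in R 4.3.3: filterByExpr kept 16508 of 25208 genes, with 99.968% of reads, TMM set the scale, and the robust quasi-likelihood model took all 12 libraries, each group having 1 coefficient (common coefficient of variation 8.26%). CPM values are TMM-scaled, SE values were taken from the F statistic, and adjusted p-values cover all tested genes. Intervals and floors (3 counts for a count of 0) cover counting error only, since reads are not independent molecules. On simulated counts for this comparison (16508 genes, 200 changed), 58% and 70% of genes changed by 0.5 and -0.5 on the log2 scale and 82% and 68% of those changed by 1 and -1 were recovered, with 12 false calls. The interaction test on these simulated counts called 3 unchanged genes.

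The members and the 62 gene lists were chosen with earlier results of these data known. Named were Aqp2, Avpr2 and Ctnnb1. Among steady genes with a mean of at least 1 CPM and no overlap of groups, and leaving out predicted genes, clones, small RNAs and pseudogenes by symbol, the 15 largest folds and the 8 largest CPM differences in each direction were added, then up to 4 called members per list by adjusted p, all members of the signalling lists by value or range, and 3 interaction genes in each direction. This gave 130 genes, most of which the report gives; the 6 genes Col4a2, Arl4d, Avpi1, Slc39a4, Fxyd6 and Gm34765 were added after their values were seen. Coordinates are from RefSeq (GRCm38.p6), matched by gene ID for 16464 tested genes. Replicate numbers are not stated to mark a shared culture or day and were not used as pairs in the main fit. Results for some genes that the rule picked are not reported here.

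Each choice was changed in turn: DESeq2 1.42.0 as the test; DESeq2 size factors, or the upper quartile, as the scale; all genes, or those with 1 CPM in 3 libraries and on average 20 reads; the 6 control-siRNA libraries alone; a replicate block; voom with sample weights and limma 3.58.1 on log2(TPM + 1), and each library left out. The authors' TPM values served for levels per length and for that fit.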

Additional observations from a re-analysis of the deposited data

How the results depend on the processing

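With 316 genes higher and 151 lower in edgeR, DESeq2 called 502 and 255, voom with sample weights 706 and 548, and limma on log2(TPM + 1) 166 and 257. With 1 library left out the counts ran from 179 to 513 higher and from 60 to 330 lower. The counts fell in some of these fits and rose in others, to 513 and 330 without Ctnnb1-siRNA dDAVP library 3. The cause of these shifts was not tested. All other settings gave counts within 1.5 times. Among them, the fit of the 6 control-siRNA libraries alone called 436 higher and 204 lower of 15879 tested genes. The interaction gave 0 genes in edgeR and 1 in DESeq2, and 0 with each library left out. The log2 fold change of Aqp2 ran from 7.83 to 11.03 with 1 library left out and stayed called in every alternative. TPM without small structural RNAs was an alternative chosen after seeing the data.

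No pairing by replicate number was seen: the correlations of same-numbered vehicle and dDAVP libraries were 0, -0.01 and 0.04. Whether same-numbered libraries shared a culture or day is not stated. With a replicate block 280 genes were higher and 128 lower, and among the named genes 15 lost their call, Aqp3, Pde4a, Pde4c, Rap1gap and Errfi1 among them. Of all values of other named genes under the alternatives, 2663 kept direction and side of the threshold, 315 in 50 genes fell short of it, 2, both of Rnu5g, passed it, and none changed direction. Depth limits genes with few reads, such as Aqp3, Gng13 and the near-silent vehicle levels of Aqp2, Pde10a and Nr4a3.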
